A study of Mus musculus with 44 samples.

Results

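The transcripts described here are 10 genes of the T cell, chosen by gene name: Cd2, Cd3d, Cd3e, Cd3g, Cd4, Cd8a, Cd8b1, Lck, Tcf7 and Foxp3. All 10 were listed in both tables of the series, among 24150 genes in the subcutaneous table and 26940 in the intratracheal one. A T cell recognises antigen through its receptor, whose signal is carried into the cell by the CD3 chains and started by the kinase Lck, which is held at the coreceptors CD4 and CD8. Helper and regulatory T cells carry CD4, cytotoxic T cells carry the CD8 pair, Tcf7 encodes the transcription factor TCF1 of naive and memory T cells, and Foxp3 encodes the factor that defines regulatory T cells. In a lung tumour, T cells can kill tumour cells, and regulatory T cells can hold that response back.

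RNA was measured in 44 lung pieces of about 3 mm3 from C57BL6j mice, by sequencing of polyadenylated RNA. The study asked how a mutation of Timp2, the gene of a secreted inhibitor of matrix metalloproteinases, and daily treatment with recombinant human TIMP2 (rTIMP2) bear on tumours in the lung. The tumour cells were LL/2-Luc2, a Lewis lung carcinoma line that carries a luciferase reporter, so every tumour rests on 1 cell line. In the subcutaneous model, wild-type mice bore these cells under the skin and their lungs were taken at an early metastatic stage, after the vehicle HBSS (n = 5) or after rTIMP2 that began on day 0 (n = 5) or on day 7 (n = 4). For the intratracheal model, the cells were instilled into the airways of wild-type (WT) mice or of mice with mutant Timp2 (MT2). Its 6 groups of n = 5 were WT and MT2 tumour-free lungs, WT and MT2 lungs with tumour cells and HBSS, and WT and MT2 lungs with tumour cells and rTIMP2. The rTIMP2 was injected into the abdomen at 200 µg per kg per day. The tumour-free lungs carry the label of the LL/2-Luc2 line as well. They are taken as tumour-free from their titles and treatment labels, and their reporter value was 0 in all 10. The subcutaneous lungs had no tumour-free group.

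Values are the authors' normalized counts, and fold changes are on the log2 scale of the value plus 1. A gene was called changed at a limma adjusted p under 0.05, taken over all genes tested. The estimated depth was 14900000 to 19400000 reads in the subcutaneous libraries and 10700000 to 17100000 reads in the intratracheal ones, where 1 read was worth 0.816 to 1.21. Timp2 itself was 10619 ± 519 (SD, n = 5) in WT and 6105 ± 144 in MT2 tumour-free lungs, so transcript of the mutated gene was still counted, and in HBSS tumour lungs the genotypes overlapped (5753 to 7781 in WT, 6512 to 11992 in MT2). Among the 30 intratracheal libraries, 4 of the 10 labelled rTIMP2 stood apart. WT rTIMP2 replicates 2, 3 and 5 had a reporter value of 0 and MT2 rTIMP2 replicate 2 had 0.983, against 23.3 to 75.5 in the other rTIMP2 libraries and 39.3 to 70.9 in the HBSS tumour libraries. In those 4 libraries Hmga2, a transcript abundant in the tumour lungs, was 13.6 to 63.9, and it was 1198 to 5300 in the other 6. Their level of Xist, a transcript of female cells, was 42.2 to 119, and that of the Y-linked gene Ddx3y was 1024 to 1321, whereas the tumour-free lungs had Xist of 4118 to 6657 and Ddx3y of at most 5.78. Ddx3y was also counted in the HBSS tumour lungs, at 209 to 672 in WT and 123 to 525 in MT2. In the other 6 rTIMP2 libraries it was 234 to 686. Xist was 1153 to 8305 in the HBSS tumour lungs and 1778 to 4843 in those 6. The labels give no sex, and the part of sex in the comparisons of tumour with tumour-free lungs was not tested. T cell gene tests that rest on the 4 libraries of low reporter are given with and without them, and that comparison was chosen after seeing the data.

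Per kilobase of exon, the WT tumour-free lungs expressed Tcf7 most (202 ± 24.4, SD, n = 5), followed by Cd2 (163 ± 21.2) and Lck (66.9 ± 13.9). Cd8b1 (57.2 ± 11.2) and Cd3d (41.8 ± 11.2) came next. Cd8a (25.8 ± 4.50), Cd3g (25.2 ± 4.42) and Cd4 (24.1 ± 4.42) lay within their spread of each other. Cd3e (18.9 ± 4.84) was lower by more than its SD, and Foxp3 was lowest at 3.16 ± 1.23. Foxp3 therefore rested on few reads: its values ran from 1.08 to 30.2 over all libraries. In bulk RNA, fewer T cells and less RNA per T cell cannot be told apart.

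In the mouse genome (GRCm38, called mm10) the CD3 genes sit together on chromosome 9. Cd3g (chr9:44969572-44980431, minus strand) and Cd3d (chr9:44981786-44987339, plus strand) point away from each other, with 1354 bases between their RefSeq starts, and Cd3e (chr9:44998740-45009627, minus strand) lies beyond Cd3d. Cd8b1 (chr6:71322788-71337494) and Cd8a (chr6:71373427-71379173) are neighbours on the plus strand of chromosome 6, and Cd4 is farther along it (chr6:124864692-124888221, minus strand). Lck is at chr4:129548344-129573641, Cd2 at chr3:101275899-101287939 and Tcf7 at chr11:52252371-52283014, all on the minus strand. Foxp3 (chrX:7573644-7595245, plus strand) overlaps Ppp1r3f, Ccdc22 and Gm36995 on the other strand and Flicr on its own. Tcf7 overlaps A630014C17Rik on the other strand. The strand of counting is not given in the sources used here, so reads of these pairs cannot be told apart.

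RefSeq (GRCm38.p6) gave promoter windows for 7 of the 10 genes, 10 windows in all. The 250 bases before the start are shown for Cd3d and Cd3g, the pair transcribed from a shared interval whose transcripts fell together in the tumour lungs, and for Lck, the kinase that acts with them. None of these bases lies in an annotated exon. Capitals mark AGGAAG, a core motif of ETS factors, and CTTTGA, a core motif of the TCF/LEF family to which TCF1 belongs, each searched on both strands, where they read CTTCCT and TCAAAG. The windows are chr9:44981536-44981785 (plus strand), chr9:44980432-44980681 (minus strand) and chr4:129573642-129573891 (minus strand), printed 5′ to 3′.
Cd3d: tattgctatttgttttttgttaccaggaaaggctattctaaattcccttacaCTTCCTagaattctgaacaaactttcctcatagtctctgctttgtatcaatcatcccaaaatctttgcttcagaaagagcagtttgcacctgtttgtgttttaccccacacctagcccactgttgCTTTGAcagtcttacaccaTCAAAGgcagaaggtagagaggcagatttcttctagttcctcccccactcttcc
Cd3g: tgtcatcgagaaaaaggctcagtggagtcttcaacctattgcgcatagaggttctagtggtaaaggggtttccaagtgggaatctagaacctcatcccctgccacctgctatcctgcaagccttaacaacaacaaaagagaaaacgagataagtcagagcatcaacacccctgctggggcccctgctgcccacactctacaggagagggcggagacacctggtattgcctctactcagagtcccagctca
Lck: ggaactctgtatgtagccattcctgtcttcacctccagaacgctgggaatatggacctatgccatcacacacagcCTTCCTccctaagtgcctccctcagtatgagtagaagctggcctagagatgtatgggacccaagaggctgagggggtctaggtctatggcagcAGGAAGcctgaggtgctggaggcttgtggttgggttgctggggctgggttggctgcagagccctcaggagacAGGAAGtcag
The Cd3d window held 1 match to AGGAAG and 2 to CTTTGA. The Lck window shown had 3 matches to AGGAAG and none to CTTTGA, and the Cd3g window held neither motif. A second Lck window, not shown (chr4:129558373-129558622, minus strand), held 1 match to AGGAAG and none to CTTTGA. Among 32851 mouse windows of the same length, 29.5% held AGGAAG and 13.8% held CTTTGA. A match is a run of letters and no evidence of binding.

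In WT lungs, the intratracheal tumour with HBSS was accompanied by lower levels of 9 of the 10 T cell genes than in tumour-free lungs, with Foxp3 as the exception. Over all 16967 genes tested, 37.7% were called lower. The median log2 fold change of the 10 genes was -1.53, and that of all genes was -0.07. Cd2, an adhesion receptor of T and NK cells, had the largest fold change (-2.48 ± 0.48, SE, limma adjusted p = 0.00084), and Cd8a had the smallest of the 9 (-1.27 ± 0.41, adjusted p = 0.015).

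The receptor chains moved together. Cd3e, a signalling chain of the receptor, was 94.4, 58.2, 54.6, 96.5 and 81.4 in the 5 WT tumour-free lungs. In the 5 WT HBSS tumour lungs it was 61.0, 28.4, 20.6, 34.6 and 9.08. WT HBSS replicate 1 was highest and lay within the tumour-free range, while the other 4 lay below it. The fold change of Cd3e was -1.50 ± 0.42 (adjusted p = 0.0082), that of Cd3g was -1.64 ± 0.39 (adjusted p = 0.0028) and that of Cd3d was -1.57 ± 0.55 (adjusted p = 0.024). The Cd3d call was lost without WT tumour-free replicate 4 (adjusted p = 0.055).

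Tcf7 was 528, 486, 460, 560 and 623 in the WT tumour-free lungs and 309, 118, 108, 170 and 65.6 in the WT HBSS tumour lungs. Its groups did not overlap, and it fell by 1.97 ± 0.33 on the log2 scale (adjusted p = 0.00036). A630014C17Rik, which overlaps it on the other strand, also fell (-2.94 ± 0.58, adjusted p = 0.00089). Non-overlap was seen for 3 of the 10 genes, Cd2, Cd8b1 and Tcf7, and for 31.1% of all genes in this direction. The coreceptor genes Cd4 (-1.32 ± 0.42, adjusted p = 0.016), Cd8a and Cd8b1 (-1.93 ± 0.43, adjusted p = 0.0019) fell, as did Lck (-1.42 ± 0.45, adjusted p = 0.015).

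Foxp3 was 7.41, 12.4, 12.1, 20.0 and 20.5 in WT tumour-free lungs and 30.2, 13.2, 7.12, 26.3 and 5.82 in WT HBSS tumour lungs. The tumour lungs spanned the whole tumour-free range, with 2 above and 2 below every tumour-free lung, and the fold change was 0.00 ± 0.48 (adjusted p = 1.00). Of the genes that overlap Foxp3, Ppp1r3f fell (-1.77 ± 0.26, adjusted p = 0.00013), and Ccdc22 was near its tumour-free level (0.06 ± 0.12, adjusted p = 0.67).

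**Figure D1:**
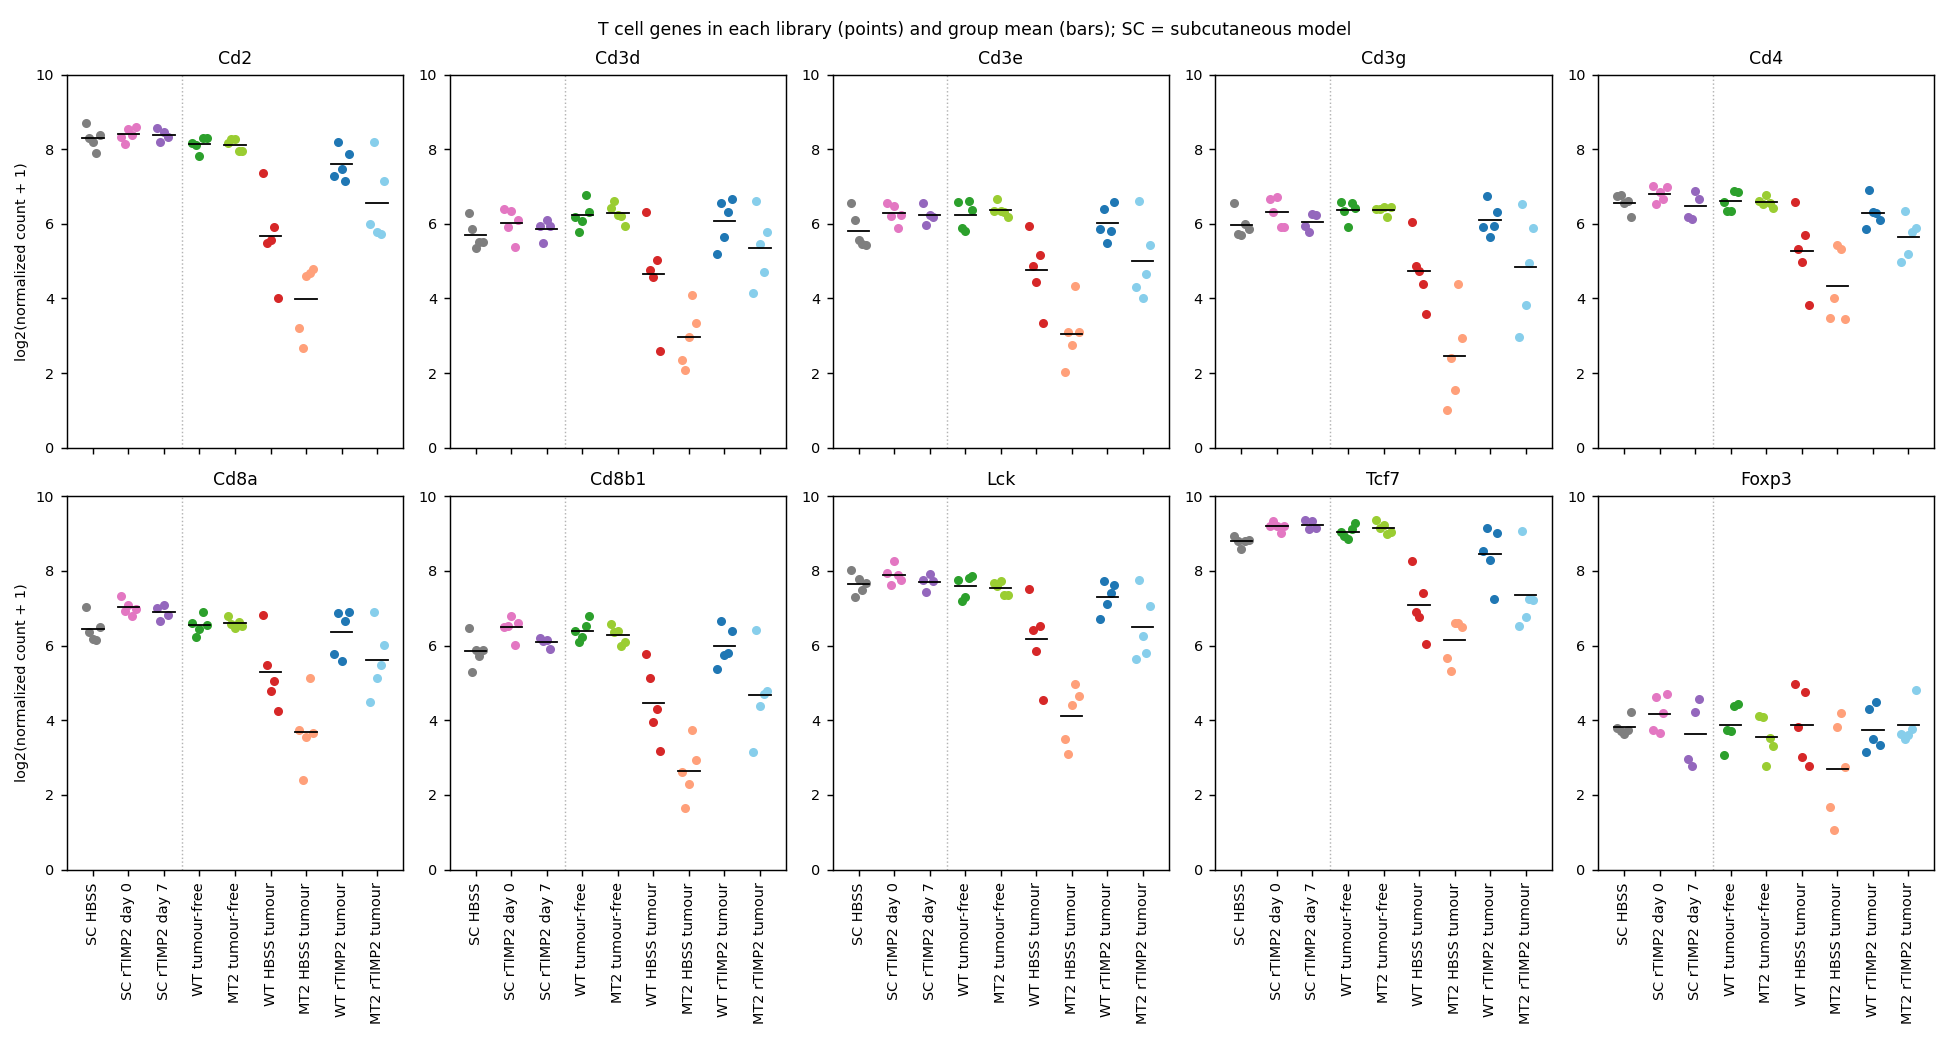
Normalized counts of each T cell gene in each library, as log2 of the value plus 1, by group (points are libraries, bars are means of the log2 values; the dotted line separates the subcutaneous and intratracheal tables, which were normalized apart). The MT2 HBSS tumour lungs have the lowest mean for every gene shown, and Foxp3 is the lowest gene in the tumour-free lungs.

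In MT2 lungs the tumour comparison gave the same 9 genes as lower, with Foxp3 again not called. The background was 35.9% of 16999 genes called lower. The median log2 fold change of the 10 genes was -3.32, beside -0.05 for all genes, and values of the 9 genes did not overlap between groups (31.4% of all genes in this direction). The largest fold changes were those of Cd2 (-4.13 ± 0.40, adjusted p = 5e-06), Cd3g (-3.92 ± 0.53, adjusted p = 5.4e-05) and Cd8b1 (-3.64 ± 0.36, adjusted p = 5.9e-06).

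Cd3e was 80.6, 101, 79.8, 78.3 and 71.3 in the MT2 tumour-free lungs and 3.06, 7.53, 5.80, 19.0 and 7.51 in the MT2 HBSS tumour lungs. Every tumour value was below 20 and every tumour-free value above 70. Cd3d, Cd3e, Cd3g and Cd8b1 reached a value of 10 in only 1 of the 5 MT2 HBSS lungs, so their fold changes rest on a few reads per tumour library and on the tumour-free group for passing the filter on low values. Lck (-3.42 ± 0.35), Cd3d (-3.32 ± 0.37), Cd3e (-3.31 ± 0.37) and Tcf7 (-3.01 ± 0.26) fell by similar amounts. Cd4 had the smallest fold change of the 9 (-2.23 ± 0.41, adjusted p = 0.00047), after Cd8a (-2.90 ± 0.41).

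Foxp3 was 16.3, 16.1, 5.86, 10.5 and 8.86 in the MT2 tumour-free lungs and 2.19, 1.08, 13.1, 17.4 and 5.67 in the MT2 HBSS tumour lungs. Tumour replicate 4 was the highest of the 10 and replicate 2 the lowest. The fold change was -0.86 ± 0.60 (adjusted p = 0.22), and it turned to 0.41 after quantile normalization.

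**Figure D2:**
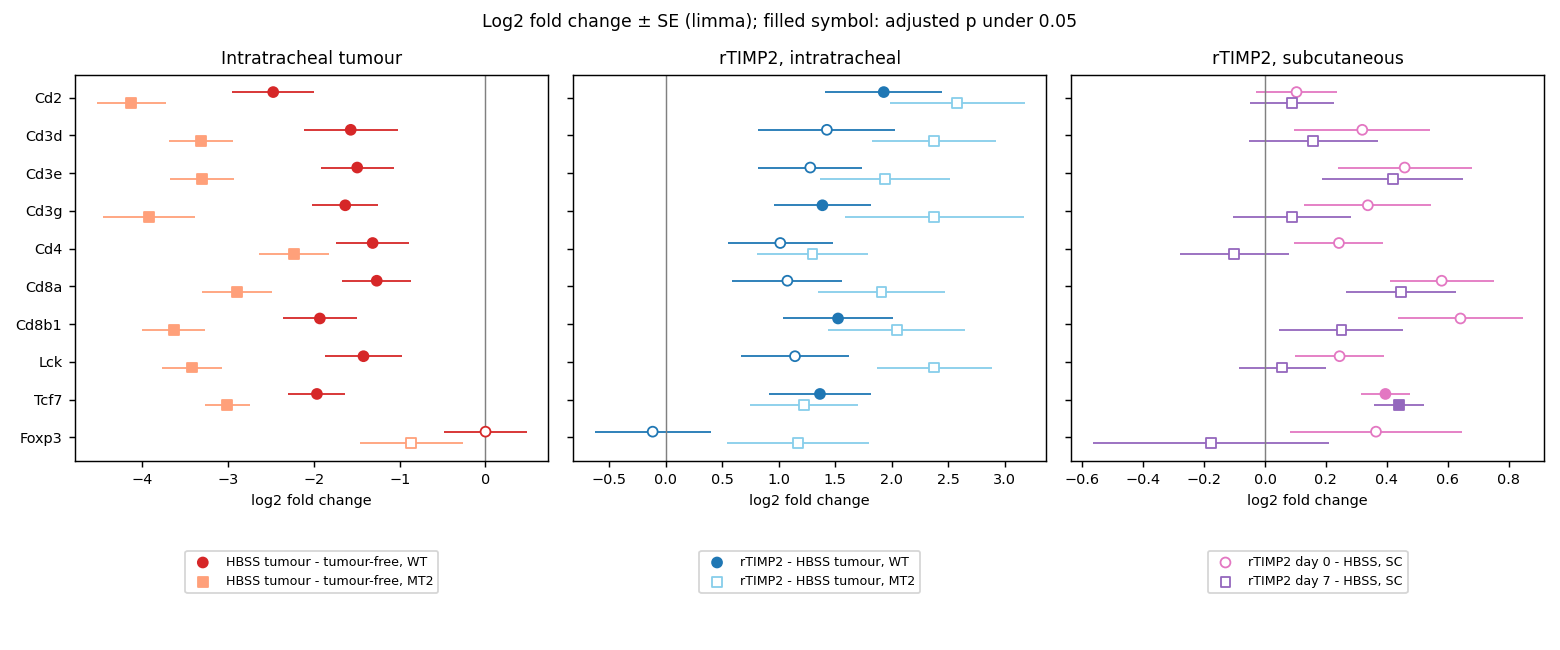
Log2 fold change of each T cell gene with its SE in 6 comparisons (left, HBSS tumour minus tumour-free; middle, rTIMP2 minus HBSS in tumour lungs; right, rTIMP2 minus HBSS in the subcutaneous model); filled symbols passed an adjusted p under 0.05. In the left panel 9 genes in each genotype lie below 0 with filled symbols, and the axes of the panels differ.

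The fall in the tumour lungs extended to other T cell genes. Over all genes tested, 37.7% were called lower in WT and 35.9% in MT2 lungs. Called higher were 5571 of 16967 genes in WT and 5360 of 16999 in MT2 lungs. Of 20 genes of receptor signalling, 16 fell in WT and 19 in MT2 lungs, and none rose. Grap2, an adaptor of T cell receptor signalling, fell in both (-2.52 ± 0.45 and -3.84 ± 0.35). Of 14 naive and memory genes, 13 fell in WT and 14 in MT2 lungs, among them Lef1, a partner of TCF1 (-2.30 ± 0.35 and -3.61 ± 0.30). The medians of these lists were -1.66 and -1.84 in WT lungs and -2.995 and -2.88 in MT2 lungs.

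Among effector and regulatory genes, 11 of 14 tested fell in WT lungs and 11 of 15 in MT2 lungs. Gzma and Prf1, which encode killing proteins shared by T and NK cells, fell in WT (-3.36 ± 0.55 and -3.16 ± 0.62) and in MT2 lungs (-5.54 ± 0.54 and -4.09 ± 0.41). Tnfrsf4, the costimulatory receptor OX40, rose in MT2 lungs (1.04 ± 0.35, adjusted p = 0.020). All 3 gamma delta T cell genes tested fell in both genotypes.

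Genes of other cells moved in the same comparisons. Of 8 B cell genes all 8 fell in both genotypes (medians -2.69 and -4.71), as did all 7 dendritic cell genes (-1.90 and -3.26), 7 of 8 NK cell genes (2 of the 8, Gzma and Eomes, are also in the effector list), and all 10 lung structure genes (-2.80 and -3.49). The other NK cell gene, the receptor gene Klra4, rose in WT (1.43 ± 0.47, adjusted p = 0.018) and in MT2 lungs (1.71 ± 0.42, adjusted p = 0.0035). The macrophage and monocyte list of 9 genes was split, with 4 genes higher and 2 lower in WT and 4 higher and 3 lower in MT2 lungs. Calls in the higher direction stand beside 5571 of 16967 genes called higher in WT and 5360 of 16999 in MT2 lungs. Of 6 genes common to leukocytes, 3 fell and 1 rose in WT lungs (median -0.36), and 3 fell and none rose in MT2 lungs (median -0.80). The gene that rose was Cd53 (0.39 ± 0.14, adjusted p = 0.030). Ptprc, the gene of CD45, fell by 1.26 ± 0.25 on the log2 scale in WT and by 2.18 ± 0.19 in MT2 lungs, the largest fall in this list in each. The summed value of the 10 lung structure genes was 557036 to 643837 in tumour-free lungs and 14004 to 276649 in HBSS tumour lungs. The B cell sum was 1566 to 3215 and 86.0 to 1513 in the same lungs, and the lymph node sum was 1338 to 1961 and 51.5 to 1208. Thymus genes were near 0 everywhere, with sums of 4.87 to 36.7. The part of these tissues and of the tumour cells in the T cell values was not tested.

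Ratios between genes were taken within each library, as the difference of their log2 values. Foxp3 over Cd3e was higher in WT HBSS tumour lungs than in WT tumour-free lungs (difference of log2 ratios 1.50, two-sided exact permutation p = 0.0079, the smallest that 5 against 5 can give), with no overlap. In MT2 lungs the difference was 2.45 (exact permutation p = 0.0079). Adjusted over the 36 exact permutation tests of 3 ratios, both gave p = 0.095 and neither passed 0.05. Both were already at the lowest possible exact p, so a larger difference could not have lowered the adjusted value. The log2 ratio ranged from -1.41 to -0.38 in the WT HBSS tumour lungs and from -3.50 to -1.94 in the WT tumour-free lungs.

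Cd3e over Ptprc, the ratio of this T cell transcript to that of CD45, was lower in MT2 HBSS tumour lungs than in MT2 tumour-free lungs (-1.13, exact permutation p = 0.0079, adjusted 0.095). In WT lungs the same ratio differed by -0.23 (exact permutation p = 0.37). For Cd8a over Cd4, none of the 12 comparisons had an exact permutation p under 0.05, and the lowest was 0.079 for rTIMP2 from day 7 against HBSS (0.55). Of all 36 tests, none passed 0.05 after adjustment, which those at the lowest possible p could not have done through a larger difference.

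**Figure D3:**
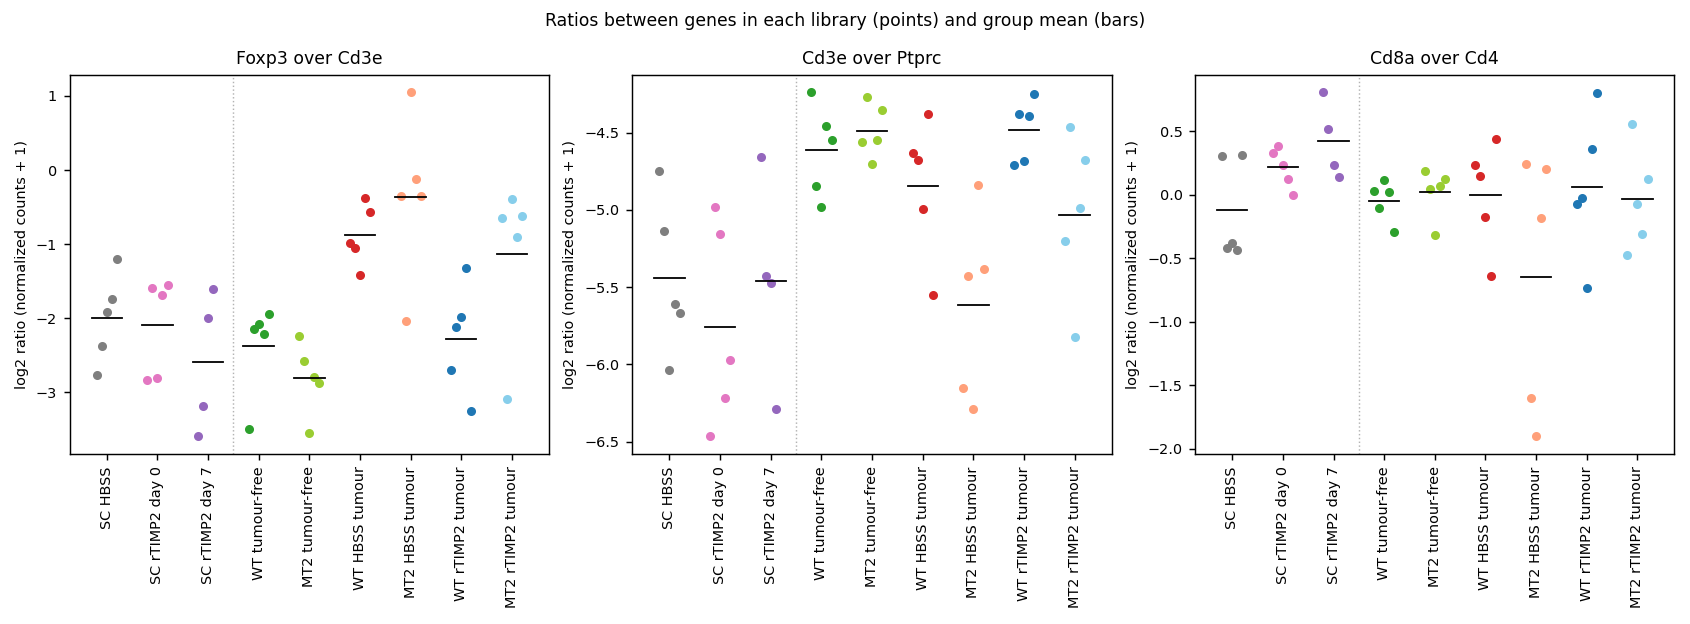
Log2 ratios of normalized counts plus 1 in each library, by group, for Foxp3 over Cd3e, Cd3e over Ptprc and Cd8a over Cd4 (points are libraries, bars are means). The WT HBSS tumour lungs lie between -1.41 and -0.38 in the first panel, above all WT tumour-free lungs.

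Genotype made no called difference to any T cell gene. In tumour-free lungs, 0 of 10 were called, with a background of 0.0238%. An unadjusted limma p under 0.05 was seen for 0 of the 10 and for 1633 of all 16774 genes. The fold changes lay between -0.31 ± 0.33 (Foxp3) and 0.12 ± 0.17 (Cd3e). The order of group means of Cd3e was MT2 tumour-free (82.2 ± 11.1, SD, n = 5), WT tumour-free (77.0 ± 19.7), WT rTIMP2 tumour (67.0 ± 21.5), MT2 rTIMP2 tumour (39.3 ± 33.5), WT HBSS tumour (30.7 ± 19.4) and MT2 HBSS tumour (8.59 ± 6.12). Each neighbour in this order lay within the spread of the next, except the last pair. The MT2 rTIMP2 lungs had Cd3e of 18.6, 96.3, 15.1, 24.3 and 42.0. Their mean stood above that of the WT HBSS lungs only through replicate 2, a library of low reporter. By medians the order of these groups was the other way (24.3 in MT2 rTIMP2 and 28.4 in WT HBSS).

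In HBSS tumour lungs all 10 genes had lower means on the log2 scale in MT2 than in WT, with a median of -1.68 beside -0.03 for all genes. None passed the limma test, where no gene of 16299 did (0%), although 8 of the 10 had an unadjusted p under 0.05, as 1208 of all genes did. Lck was 184, 84.2, 57.0, 91.2 and 22.2 in WT and 10.2, 7.53, 20.3, 30.4 and 24.2 in MT2 lungs. WT replicate 5 fell among the MT2 lungs and the other 4 lay above them (-2.05 ± 0.55, adjusted p = 0.47). Cd3g differed by -2.27 ± 0.66 (adjusted p = 0.50), but it, Cd3d, Cd3e and Cd8b1 reached a value of 10 in only 1 of the 5 MT2 lungs. These genes passed the filter mostly through the WT group, where Cd3g reached 10 in 5 lungs and Cd3d, Cd3e and Cd8b1 in 4. Hmga2 was 2212 to 4713 in WT and 2624 to 5070 in MT2 HBSS tumour lungs (0.13 ± 0.24, adjusted p = 0.94). In the same comparison the median was -2.13 for 7 B cell genes, -0.92 for 4 dendritic cell genes and -0.92 for 10 lung structure genes, with none called, and Ptprc differed by -0.92 ± 0.30 (adjusted p = 0.50). Their part in the T cell values was not tested.

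The test of whether the tumour effect differed by genotype called 0 of the 10 genes, with a background of 0.0223%. The interaction was negative for all 10, and 8 had an unadjusted p under 0.05, as 1776 of 17927 genes did. It was -2.29 ± 0.68 for Cd3g (adjusted p = 0.26) and -1.81 ± 0.58 for Cd3e (adjusted p = 0.27). Both genes reached a value of 10 in only 1 of the 5 MT2 HBSS lungs, so these sizes rest on few reads there. Without MT2 HBSS replicate 4, in which Cd3g was 20.0 against 1.02 to 6.68 in the others, Cd3g alone was called (adjusted p = 0.040).

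rTIMP2 in WT tumour lungs was accompanied by higher levels of 4 of the 10 genes than HBSS: Cd2, Cd3g, Cd8b1 and Tcf7. The background was 16% of 16908 genes called higher. This comparison and the tumour comparison above share the WT HBSS lungs. Cd2 was 155, 289, 178, 141 and 233 in the WT rTIMP2 lungs and 162, 43.7, 46.1, 59.7 and 15.1 in the WT HBSS lungs. WT HBSS replicate 1 was the only HBSS lung inside the rTIMP2 range, and the fold change was 1.93 ± 0.52 (adjusted p = 0.040).

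Cd8b1 was 40.6, 99.2, 52.8, 54.7 and 83.5 in the WT rTIMP2 lungs and 53.8, 33.9, 14.6, 18.9 and 8.07 with HBSS (1.52 ± 0.49, adjusted p = 0.044). Tcf7 was 369, 567, 313, 151 and 513 with rTIMP2 (1.36 ± 0.45, adjusted p = 0.047), and replicate 4 lay within the HBSS range. Cd3g had a fold change of 1.39 ± 0.43 (adjusted p = 0.043). The other genes, in order, were Cd3d at 1.43, Cd3e at 1.28, Lck at 1.14, Cd8a at 1.08, Cd4 at 1.01 and Foxp3 at -0.12, with adjusted p from 0.057 to 0.87. The 4 calls depended on single libraries: 0 remained without any one of WT HBSS replicates 2, 3, 4 and 5 or WT rTIMP2 replicates 1, 2, 3 and 5, whereas 9 genes were called without WT HBSS replicate 1. The share of all genes called with a library left out is not given here.

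Without the 3 WT rTIMP2 libraries with a reporter value of 0, none of the 10 was called, and 2 rTIMP2 lungs remained. The fold changes were then 1.55 ± 0.75 for Cd2, 1.12 ± 0.70 for Cd8b1, 1.19 ± 0.62 for Cd3g and 0.81 ± 0.59 for Tcf7 (adjusted p = 0.70 for each). Those 2 lungs, replicates 1 and 4, had Cd3e of 56.8 and 55.5, while the 3 without reporter had 83.9, 43.6 and 95.0. In WT rTIMP2 replicate 4, where Hmga2 was 2780, Cd3d (79.2), Cd8a (99.6), Cd3e (55.5), Cd3g (60.4) and Lck (168) lay within the WT tumour-free range. Tcf7 (151), Cd2 (141), Cd8b1 (54.7) and Cd4 (77.5) lay below it, and Foxp3 (21.6) lay above it. The lung structure list had 9 of 10 genes higher and 1 lower, and 7 of 8 B cell genes were higher, in the comparison with all libraries. Their part in the T cell values was not tested. Among receptor signalling genes, 6 of 20 rose, among them Grap2 (1.93 ± 0.54, adjusted p = 0.040). Of naive and memory genes 3 of 14 rose, and of effector and regulatory genes 3 of 16, both near the 16% of all genes called higher. Without the 3 libraries none of the genes in these lists was called, Grap2 differed by 1.37 ± 0.75 (adjusted p = 0.70), and the list medians went from 1.35, 1.24 and 1.07 to 0.85, 0.66 and 0.77. The lung structure median went from 1.93 to 1.17 and the B cell median from 2.15 to 1.16, with none called.

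Foxp3 over Cd3e was lower with rTIMP2 than with HBSS in WT tumour lungs (-1.40, two-sided exact permutation p = 0.016, adjusted 0.14). Its log2 values in the 5 WT rTIMP2 lungs were -2.70, -2.12, -1.99, -1.32 and -3.25. Replicate 4 lay inside the range of the HBSS lungs and the other 4 below it. Without the 3 libraries with no reporter, replicates 1 and 4 remained, and the difference was -1.13 (exact permutation p = 0.095, where 2 against 5 can give 0.048 at the lowest). In MT2 tumour lungs the difference in this ratio between rTIMP2 and HBSS was -0.77 (exact permutation p = 0.29). Without MT2 rTIMP2 replicate 2 it was -0.28 (exact permutation p = 0.57). Against MT2 tumour-free lungs the MT2 rTIMP2 lungs had a higher ratio (1.67, exact permutation p = 0.040, adjusted 0.29). Without replicate 2 that difference was 2.17 (exact permutation p = 0.0079, adjusted 0.071). Against WT tumour-free lungs, the WT rTIMP2 lungs had 0 of 10 genes called (background 0.208%). An unadjusted limma p under 0.05 was seen for 1 of the 10 and for 2868 of all 16815 genes. All 10 fold changes were below 0, from -0.60 ± 0.31 (Tcf7) to -0.12 ± 0.37 (Foxp3). Without the 3 libraries with no reporter, 3 genes were called lower: Cd2 (-0.92 ± 0.18, adjusted p = 0.010), Tcf7 (-1.16 ± 0.31, adjusted p = 0.026) and Cd8b1 (-0.81 ± 0.25, adjusted p = 0.040). The share of all genes called in that fit is not given here.

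In MT2 tumour lungs all 10 genes were higher on average with rTIMP2 than with HBSS, and none was called, as no gene of 16248 was (0%). The median fold change was 1.99, beside 0.03 for all genes, and 9 of 10 had an unadjusted p under 0.05, as 1559 of all genes did. Without MT2 rTIMP2 replicate 2 the median was 1.60, and again none was called. Cd2, Cd3d and Lck did not overlap between groups, as was seen for 1.11% of all genes in this direction. For Cd3d the lowest rTIMP2 value (16.7) and the highest HBSS value (16.2) were less than 1 read apart. Cd3d, Cd3e, Cd3g and Cd8b1 each reached 10 in only 1 of 5 HBSS lungs and passed the filter mostly through the rTIMP2 group. In that group Cd3d and Cd3e reached 10 in 5 lungs, and Cd3g and Cd8b1 in 4. The median of the 10 genes and the count of unadjusted p-values include these genes, so neither is independent of that filter. Lck was 49.0, 216, 75.4, 54.4 and 132 with rTIMP2, and every value exceeded the highest HBSS value of 30.4 (2.38 ± 0.51, adjusted p = 0.27). Without replicate 2, Lck differed by 2.06 ± 0.47 (adjusted p = 0.26). Genes of other cells differed in the same direction, none of them called, with a median of 3.15 for 7 B cell genes, 1.29 for 10 lung structure genes and 1.23 for 5 dendritic cell genes (2.55, 0.76 and 1.05 without replicate 2). Their part in the T cell values was not tested.

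Tcf7 was 91.2, 536, 107, 152 and 147 in the MT2 rTIMP2 lungs. Replicate 2, the lung with a reporter value of 0.983, was the highest, and the other 4 lay between 91.2 and 152. Against HBSS, Tcf7 differed by 1.22 ± 0.48 with all libraries and by 0.80 ± 0.34 without replicate 2 (adjusted p = 0.49 and 0.52). Against MT2 tumour-free lungs, 8 of the 10 genes were lower in the MT2 rTIMP2 lungs, with a background of 32.7%. Cd3d (-0.94 ± 0.42, adjusted p = 0.071) and Foxp3 (0.30 ± 0.37, adjusted p = 0.49) were not called. Tcf7 fell most (-1.79 ± 0.40, adjusted p = 0.0064), and Cd4, with -0.94 ± 0.27, was the 1 gene without overlap between the groups (15% of all genes in this direction). Leaving out any 1 of the 5 MT2 tumour-free lungs or of MT2 rTIMP2 replicates 1, 3 and 4 gave 4 to 5 calls. Without replicate 2, 9 genes were called, and Tcf7 fell by 2.21 ± 0.16. The share of all genes called with a library left out is not given here.

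The other T cell genes of the MT2 rTIMP2 lungs fell in part against MT2 tumour-free lungs. Of 20 receptor signalling genes, 14 fell, and of 14 naive and memory genes, 10 fell. Without replicate 2 these counts were 18 and 13. Of 16 effector and regulatory genes tested, 3 were higher and 3 lower, shares below the 26.6% and 32.7% of all genes called in each direction. Without replicate 2, 3 were higher and 11 lower. The inhibitory receptors Pdcd1 (2.00 ± 0.47, adjusted p = 0.0070) and Ctla4 (1.76 ± 0.39, adjusted p = 0.0061) and the costimulatory receptor Tnfrsf4 (1.35 ± 0.37, adjusted p = 0.011) rose, while Prf1, Gzma and Tbx21 fell. All 6 were called in the same direction without replicate 2, with Pdcd1 at 2.22 ± 0.44 and Prf1 at -2.81 ± 0.35.

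Between the genotypes under rTIMP2, 0 of the 10 genes were called (background 0%). An unadjusted p under 0.05 was seen for 1 of the 10 and for 2998 of all 16858 genes. Cd8b1 had the largest difference (-1.31 ± 0.54, adjusted p = 0.26). Without MT2 rTIMP2 replicate 2, 6 genes were called lower in MT2. With all 4 libraries of low reporter left out, none was. The share of all genes called in these fits is not given here. The interaction of genotype with rTIMP2 called 0 of 10 genes (background 0%), and 0 of 10 had an unadjusted p under 0.05, beside 1053 of all 17841 genes.

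**Figure D4:**
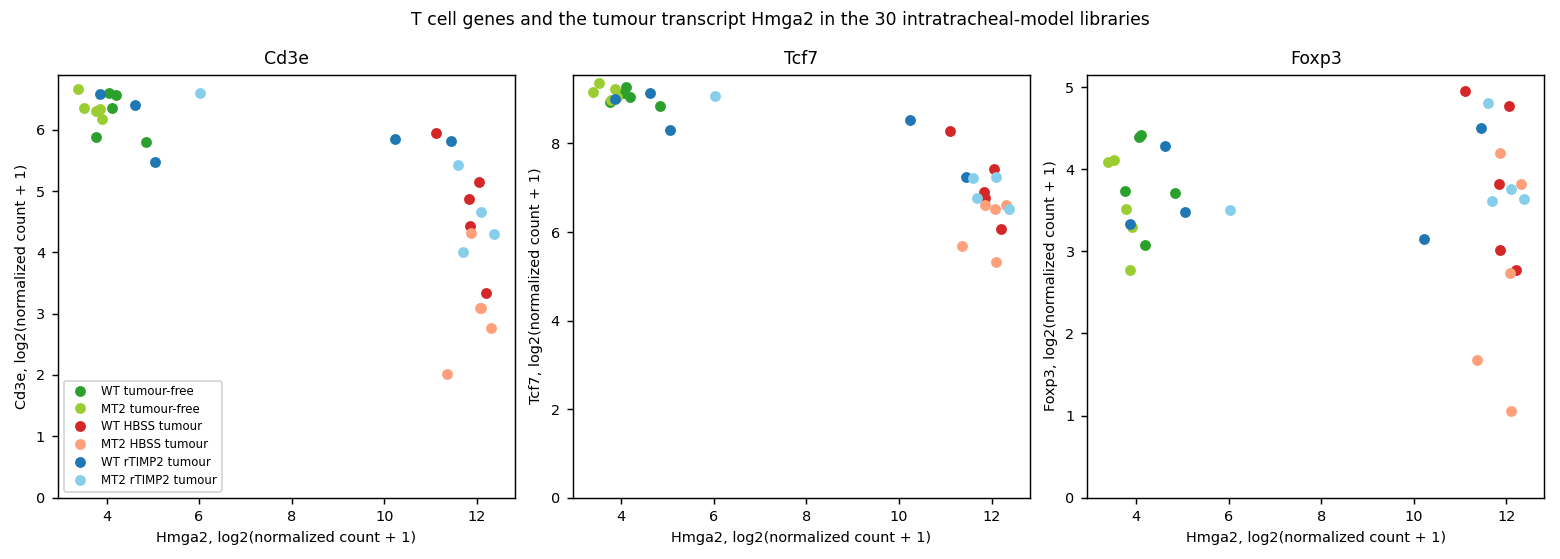
Cd3e, Tcf7 and Foxp3 against the tumour transcript Hmga2 in the 30 intratracheal libraries, all as log2 of the normalized count plus 1 (points are libraries, coloured by group). The 4 rTIMP2 libraries with Hmga2 of 13.6 to 63.9 lie on the side of the tumour-free lungs, and no line was fitted.

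In the subcutaneous model, where no tumour was placed in the lung, Tcf7 rose with rTIMP2 from either start. It was 488, 448, 387, 448 and 455 in the HBSS lungs. With rTIMP2 from day 0 it was 590, 642, 589, 514 and 593, and from day 7 it was 654, 557, 643 and 563. Every treated lung exceeded every HBSS lung, as was seen for 4.44% of genes from day 0 and 6.49% from day 7. The fold change was 0.40 ± 0.08 (adjusted p = 0.0088) from day 0 and 0.44 ± 0.08 (adjusted p = 0.0057) from day 7. Both comparisons share the HBSS lungs.

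Tcf7 was the 1 gene of the 10 called in each, with a background of 3.88% called higher from day 0 and 4.46% from day 7. From day 0, all 10 fold changes were above 0, with a median of 0.35 beside 0.00 for all genes. Cd8a, which encodes the alpha chain of CD8, was 131, 81.1, 70.9, 70.7 and 88.8 with HBSS and 161, 120, 136, 109 and 125 with rTIMP2 from day 0. HBSS replicate 1 lay among the treated lungs and the other 4 below them (0.58 ± 0.17, adjusted p = 0.050, just above the threshold). Cd8b1 differed by 0.64 ± 0.20 (adjusted p = 0.068). Without HBSS replicate 1, 3 genes were called from day 0 and 2 from day 7, and without rTIMP2 day 0 replicate 4, 2 were called from day 0.

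From day 7, 8 of the 10 fold changes were above 0, with a median of 0.12, and Cd4 was at -0.10 ± 0.18. Between the 2 starts, 0 of 10 genes were called (background 0.235%). Of the 10, 1 had an unadjusted p under 0.05, Cd8b1 (-0.39 ± 0.16, adjusted p = 0.32), beside 2249 of all 17481 genes. Foxp3 was 11.5 to 17.6 with HBSS, 11.7 to 24.8 from day 0 and 5.86 to 22.9 from day 7, with overlap of all groups. Ptprc was 2163 to 3107 in the HBSS lungs, 2353 to 8346 from day 0 and 2392 to 5710 from day 7.

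Around Tcf7, 3 of 14 naive and memory genes rose and 2 fell from day 0, where 4.21% of all genes fell, and 3 rose and 1 fell from day 7, where 5.92% did. Gata3, a transcription factor of T helper cells that lung lymphoid and other cells also use, rose from day 0 (0.80 ± 0.15, adjusted p = 0.0058) and from day 7 (0.89 ± 0.15, adjusted p = 0.0041). Ets1, a founding member of the ETS family, rose by 0.34 ± 0.08 and 0.39 ± 0.07. S1pr1, which lets lymphocytes leave lymph nodes and which endothelium also expresses, fell from day 0 (-0.75 ± 0.11) and from day 7 (-0.47 ± 0.11). Pdcd1 fell from both starts (-1.10 ± 0.28, adjusted p = 0.027, and -0.98 ± 0.29, adjusted p = 0.042). Of 20 receptor signalling genes, Grap2 was the 1 gene that rose from day 0, and Grap2 and Fyn rose from day 7. The lung structure list had 4 of 10 genes lower and none higher from each start, and their part was not tested.

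Within groups, the T cell genes varied together in the intratracheal lungs. After group means were subtracted, Pearson's r over the 45 pairs of the 10 genes ranged from 0.40 to 0.96 with a median of 0.77 over 30 libraries, and the median for pairs with Foxp3 was 0.60. In the 14 subcutaneous libraries the median was 0.48, and it was 0.03 for pairs with Foxp3. Points of the same library share its depth and tissue piece, so these values are descriptive. The 30 libraries include the 4 rTIMP2 libraries of low reporter, and r is not given without them. The genes outside the 10 most like Cd3e in the intratracheal lungs, among 13897 with a mean of at least 50, were Il2rg (r = 0.91), which encodes the common gamma chain of interleukin receptors, Baiap3 (0.89), Mboat2 (0.88), Ciita (0.87) and Ptprc (0.87). In the subcutaneous lungs they were Atp6v1d, Rps3a2, Dgat2, Rpl9-ps6 and Rbfa (r = 0.90 to 0.91 over 14 libraries).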

How the data were processed

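The authors deposited 2 tables of normalized counts, a signal scaled between libraries, with 1 value per gene and library. Their tools, per the submitters' processing notes, were STAR, Bowtie2, DESeq2 and Partek on build mm10. Roles, versions, annotation and strand are not given in sources used here. Between 78.9 and 84.5% of low values were whole multiples of a library's step (tolerance 0.02 steps, up to 20 steps), too few to recover whole reads, so no count model was fitted. Depth was estimated from these steps.

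For each of 14 comparisons, limma 3.58.1 (R 4.3.3) was run on log2(value + 1), with trended and robust eBayes and only the groups compared. A gene was tested if its value reached 10 in as many libraries as the smaller group holds, which all 10 T cell genes met in each comparison, and p-values were adjusted over all genes tested. The fit was tested on simulated data. Log2 ratios were tested by exact two-sided permutation. No batch is labelled, and the p-values reflect only the variation among these samples, which may in part be technical. The 10 genes and 12 marker lists were chosen with earlier results of these data known. Up to 4 called genes per list, direction and comparison, the largest by fold change, were eligible to be named. Some results are not reported here. Groups come from the sample titles, because the treatment labels of the intratracheal rTIMP2 mice count upward from sample to sample. The comparisons share control groups.

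Alternatives were a pseudocount of 0.5, no filter, equal library totals, quantile normalization, all groups in 1 fit, a replicate block and leaving out each library.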

Additional observations from a re-analysis of the deposited data

Results flagged for a closer look

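A single library stood far from the others of its group for 9 of the 90 combinations of a T cell gene and a group, where chance gives about 1 in 20. Among the MT2 HBSS tumour lungs, replicate 4 had the highest Cd3e (19.0) and the highest Cd8a (34.3). Among the WT HBSS tumour lungs, replicate 1 had the highest Cd8a (112). Among the MT2 rTIMP2 lungs, replicate 2, the lung with a reporter value of 0.983, had the highest Cd8b1 (84.5) and the highest Tcf7 (536), and replicate 5 had the highest Foxp3 (27.0). Among the subcutaneous HBSS lungs, replicate 1 had the highest Cd3g (92.6) and replicate 5 the highest Foxp3 (17.6). Among the MT2 tumour-free lungs, replicate 4 had the lowest Cd3g (71.9). No T cell gene had a called interaction of genotype with tumour or with rTIMP2.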

How the results depend on the processing

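The 32 calls of single T cell genes kept their direction under all 555 alternatives and were lost in 85 of them. The 9 calls in each tumour comparison held under every setting tried except in WT lungs without WT tumour-free replicate 4 (8 calls). The count of called genes moved elsewhere. For rTIMP2 from day 0 against HBSS it was 1, and 2 with equal library totals, 2 with quantile normalization, 3 with all groups in 1 fit and 1 to 3 when 1 library was left out. From day 7 it was 1, and 1 to 2 with 1 library left out. For rTIMP2 against HBSS in WT lungs it was 4, and 1 with no filter, 1 with equal totals, 1 with quantile normalization, 8 with all groups in 1 fit, 0 to 9 with 1 library left out, and 0 without the rTIMP2 libraries of low reporter, a setting chosen after seeing the data. All groups in 1 fit gave 2 in place of 0 for MT2 against WT with HBSS, and 7 in place of 0 for rTIMP2 against HBSS in MT2 lungs. The WT rTIMP2 lungs against tumour-free gave 3 in place of 0 without the low-reporter libraries. The MT2 rTIMP2 lungs against tumour-free gave 8, and 4 to 9 with 1 library left out, MT2 against WT under rTIMP2 gave 0 to 6, and genotype by tumour 0 to 1. The cause of these moves was not tested, and the share of all genes called is not given beside these counts.

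Replicate numbers are not stated to pair the libraries. In no comparison did every pair with the same number deviate together (r above 0.1), a check too strict to exclude pairing of some libraries. In the MT2 tumour comparison, 3 of 5 libraries deviated most like the one with their own number. Single pairs reached an r of 0.78, in MT2 against WT under rTIMP2. With the replicate block, the count was 2 from day 0, 0 for rTIMP2 against HBSS in WT lungs and 7 for the MT2 rTIMP2 lungs against tumour-free, and it was the same in the other pairwise comparisons.

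Quantile normalization moved the median of all genes by over 0.1 in 5 comparisons, the most in the MT2 tumour comparison (0.21), where Cd2 still fell by 3.62. Equal totals moved the share of called genes that were higher from 48.0 to 63.7% from day 0, from 43.0 to 54.3% from day 7, from 65.9 to 53.3% between the 2 starts, and in MT2 against WT tumour-free lungs from 2 higher and 2 lower to 0 higher and 2 lower. At these depths the low values of Foxp3, 1.08 to 30.2, limit what can be said of it. No difference was detected in the tumour comparisons, where the SE of its fold change was 0.48 in WT and 0.60 in MT2 lungs. P-values over 5 libraries a group cannot go below 0.0079 in the ratio tests.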
